A study of Homo sapiens with 15 samples.

Results

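Cells given the most heavily cloaked mRNA of the series were compared with cells given mRNA cloaked 1 grade less. The comparison takes the 3 libraries of the strong-cloaked group and the 3 libraries of the medium-cloaked group, 6 of 15 libraries in all, chosen by their group labels alone. All cells were HepG2, an established human hepatocellular carcinoma line labelled as wild type, so every library comes from the same tumour line. The cargo in both groups was 1 µg of mRNA for the reporter eGFP (enhanced green fluorescent protein), delivered with the NanoLNP transfection reagent, and cells were lysed 48 h later. The cloaking reagent, CR-3, was applied to the mRNA beforehand: at 1 M for 2 h at 37 °C for the strong-cloaked group, and at 0.5 M for 1 h at 30 °C for the medium-cloaked group. Concentration, time and temperature therefore differ together between the groups and cannot be told apart. Values of the non-cloaked group (the same mRNA without CR-3), the weak-cloaked group (0.1 M for 0.5 h at 25 °C) and untransfected cells, 3 libraries each, are given only where they place a gene. No group received particles without mRNA, and no row for the eGFP mRNA was analysed here, so its uptake, persistence and translation were not measured in either group.

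Cloaking, in RNA chemistry, is the reversible attachment of chemical groups along an RNA so that ribosomes and base-pairing partners cannot use it until the groups are removed. What a cell senses of a delivered mRNA is read by several systems: the endosomal Toll-like receptors, the cytosolic helicases RIG-I and MDA5, which signal through MAVS to the kinase TBK1 and the factor IRF3, and double-stranded RNA enzymes such as PKR and the oligoadenylate synthetases. Their output is interferon, interferon-stimulated genes and NF-kB targets, together with the integrated stress response. HepG2 cells are of hepatocyte origin and secrete albumin, apolipoproteins and many acute-phase proteins. The series gives as its purpose the effect of cloaking on expression across the genome. The question of this comparison is whether the step between its upper grades left a mark on the host transcriptome at 48 h.

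Poly(A) RNA was sequenced to 68297832 to 78548789 counts per library in strong-cloaked cells and to 71558811 to 76549927 in medium-cloaked cells. Levels are given as CPM, library-size-scaled counts with trimmed-mean (TMM) factors, and a log2 fold change is strong-cloaked over medium-cloaked, with its standard error (SE). All 12 markers chosen to check the identity of HepG2 were present in every library of both groups, with albumin (ALB) at 5131 to 6526 CPM in strong-cloaked and 6122 to 6915 CPM in medium-cloaked cells. The least abundant of the 12, TTR, had only 5.58 to 5.73 CPM in strong-cloaked and 3.98 to 4.77 CPM in medium-cloaked cells. All genes of the mitochondrial chromosome took 3.29% to 3.55% of the counts in strong-cloaked and 3.40% to 3.45% in medium-cloaked libraries. The 13 mitochondrially encoded mRNAs alone summed to 21381 to 22558 CPM in strong-cloaked and 20221 to 21530 CPM in medium-cloaked libraries. These are bulk samples, so a difference in level cannot separate fewer expressing cells from less RNA per cell. Replicates are biological according to the titles, and p-values rest on the spread between replicates, estimated over all 5 groups together. That spread was uneven. The median standard deviation of log2 CPM between replicates was 0.18 in strong-, 0.13 in medium-, 0.30 in weak- and 0.21 in non-cloaked cells.

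No gene was called different between strong- and medium-cloaked cells. Of 18380 genes tested, 0 (0%) were called at a Benjamini-Hochberg adjusted p below 0.05 (edgeR, quasi-likelihood F test), and the smallest adjusted p was 0.55. At an unadjusted p below 0.05 there were 796 genes (4.33%), of which 509 (2.77%) were higher and 287 (1.56%) lower in strong-cloaked cells. DESeq2, run on the same 15 libraries, tested 27190 genes and called 13 of them, 5 higher and 8 lower. At an unadjusted p below 0.05 it had 1024 of the 27190. With the compared groups alone, edgeR called 0 of 17104 genes. That fit had 1807 genes at an unadjusted p below 0.05 and a smallest adjusted p of 0.13. For 3486 genes (19.0%) the 3 strong-cloaked libraries did not overlap the 3 medium-cloaked libraries, 1845 of them (10.0%) higher and 1641 (8.93%) lower.

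What the libraries could and could not show is given by the intervals. Over the tested genes the log2 fold change had a median of 0.013, with 10th and 90th percentiles of -0.47 and 0.49. The median 95% interval reached 0.62 to either side on the log2 scale. The spread behind these intervals was estimated over all 5 groups, not from the compared groups alone. The whole interval lay within 2-fold either way for 10719 genes (58.3%) and within 1.5-fold for 5183 (28.2%). Among the 11869 genes with a mean of at least 1 log2 CPM, it lay within 2-fold for 9696 (81.7%) and within 1.5-fold for 5151 (43.4%). A 2-fold difference is therefore outside the interval for most well-expressed genes, while a 1.5-fold difference in at least 1 direction is inside it for most.

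Pairs of libraries drawn across the grades lay about as far apart as pairs within a grade. The root mean square log2 difference over 12030 genes was 0.576 to 0.653 (median 0.636) between strong- and medium-cloaked libraries. It was 0.604 to 0.668 (median 0.645) among strong-cloaked replicates and 0.584 to 0.608 (median 0.595) among medium-cloaked replicates. Strong-cloaked replicate 3 lay nearer to the medium-cloaked libraries (0.606, 0.576 and 0.603) than to strong-cloaked replicates 1 and 2 (0.668 and 0.645). Strong-cloaked replicates 1 and 2 lay 0.604 apart, and each at 0.633 to 0.653 from the medium-cloaked libraries, above every distance between medium-cloaked replicates. Against untransfected libraries it was 0.773 to 0.898 for strong-cloaked and 0.787 to 0.844 for medium-cloaked libraries, above every distance between strong- and medium-cloaked libraries.

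**Figure D1:**
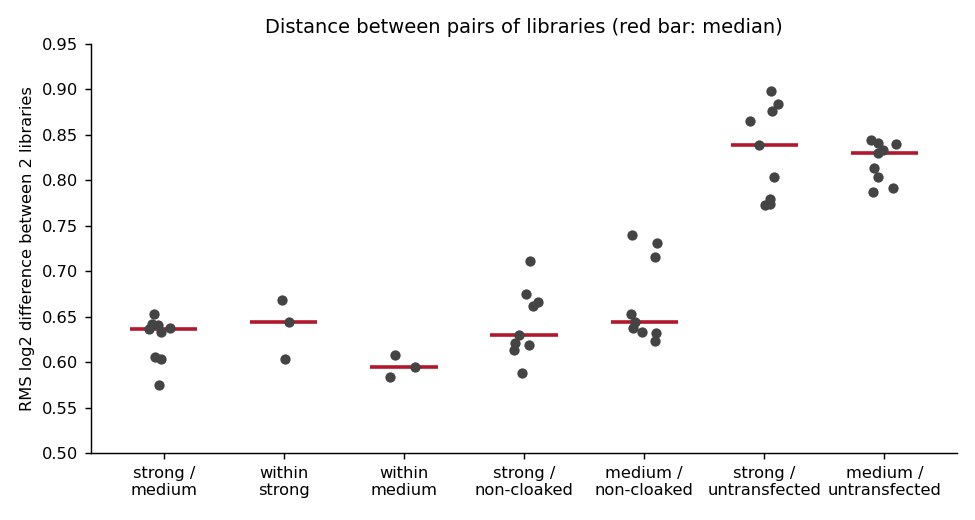
Each point is the distance between a pair of libraries, as the root mean square log2 difference in CPM over 12030 genes (vertical axis, which does not start at 0), and the red bar is the median of each kind of pair. The 9 strong/medium pairs (0.576 to 0.653) overlap the range of pairs within either group, and all pairs with untransfected cells lie higher (0.773 or more). Pairs with strong-cloaked replicate 3 are the lowest strong/medium points (0.576 to 0.606) and the highest within-strong points (0.645 and 0.668).

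Genes led by their p-value are described next, although none passed the test. They are the 12 higher and 12 lower genes of smallest p that had a mean of at least 1 log2 CPM and no overlap between the groups, so the lack of overlap is part of how they were chosen. Their adjusted p ran from 0.77 to 0.96 in edgeR's test.

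VPS4A (chr16:69311356-69326939 on GRCh38), the ATPase that disassembles ESCRT-III filaments on endosomes, had 93.4, 117 and 116 CPM in strong-cloaked cells, against 62.5, 77.7 and 75.4 CPM in medium-cloaked cells. Its log2 fold change was 0.60 ± 0.13 (SE), with an adjusted p of 0.85 in edgeR's test and 0.049 in DESeq2. Non-cloaked cells had 94.3, 112 and 102 CPM, so the medium-cloaked libraries were the low ones. VPS4A shares exonic sequence with COG8 on the opposite strand and with AC026464.4 on its own strand, so its counts are uncertain. Whether counting used the strand is not given in the sources used here, and it would not settle the second overlap.

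CSNK1E (chr22:38290691-38318084), which encodes casein kinase 1 epsilon, a kinase of circadian and Wnt signalling, had 127, 147 and 199 CPM in strong-cloaked cells, against 81.9, 52.2 and 34.5 CPM in medium-cloaked cells. The log2 fold change was 1.49 ± 0.33, with an adjusted p of 0.96 in edgeR's test and 0.028 in DESeq2. Non-cloaked cells had 78.6, 49.0 and 80.3 CPM, so for this gene the strong-cloaked libraries stood above the rest. The readthrough transcript TPTEP2-CSNK1E shares its exons and had 7, 0 and 6 counts in strong-cloaked and 117, 67 and 10 in medium-cloaked libraries, beside 9580, 9370 and 12826 counts in strong-cloaked and 6084, 3820 and 2353 counts in medium-cloaked libraries for CSNK1E itself.

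ESPL1 encodes separase, which cuts cohesin at anaphase, and averaged 23.8 CPM in strong-cloaked and 14.6 CPM in medium-cloaked cells (log2 fold change 0.71 ± 0.17). UBE2J2, a ubiquitin-conjugating enzyme of the endoplasmic reticulum, averaged 37.4 CPM in strong-cloaked and 24.6 CPM in medium-cloaked cells (0.61 ± 0.15). The homeobox gene MSX2 averaged 6.36 CPM in strong-cloaked and 4.13 CPM in medium-cloaked cells (0.62 ± 0.16). In each of ESPL1, UBE2J2 and MSX2 the non-cloaked libraries averaged 25.7, 45.1 and 6.41 CPM, above all 3 medium-cloaked libraries.

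ENO1, the glycolytic enzyme enolase 1, was the most abundant of the leading genes. It had 4846, 5204 and 3810 CPM in strong-cloaked cells, against 3462, 3278 and 3410 CPM in medium-cloaked cells, a log2 fold change of 0.45 ± 0.13. ZNRD2 averaged 16.8 CPM in strong-cloaked and 6.80 CPM in medium-cloaked cells (1.304 ± 0.32), and GTF3C5, a subunit of the RNA polymerase III factor TFIIIC, 52.7 CPM in strong-cloaked and 30.3 CPM in medium-cloaked cells (0.80 ± 0.19). The other higher genes were ERG28, GMPR2, RNF208 and RAB11FIP5, with log2 fold changes of 0.48, 0.54, 0.95 and 0.45. Among these, ERG28 belongs to sterol synthesis, GMPR2 is a GMP reductase of purine metabolism and RAB11FIP5 acts on recycling endosomes.

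Among the 12 lower genes, TMEM65 had the smallest p. This mitochondrial membrane protein gene on chromosome 8 had 5.64, 5.83 and 5.43 CPM in strong-cloaked cells, against 16.7, 22.9 and 19.2 CPM in medium-cloaked cells. The groups do not overlap, and the strong-cloaked libraries lie close together. The log2 fold change was -1.80 ± 0.34, with an adjusted p of 0.77 in edgeR's test and 0.00078 in DESeq2. Non-cloaked cells had 20.7, 11.7 and 16.03 CPM, also above every strong-cloaked library, while weak-cloaked replicate 3, at 6.72 CPM, was near them.

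ARHGEF3 (chr3:56727418-57079329), an exchange factor that activates the GTPase RhoA, had 5.88, 10.8 and 4.90 CPM in strong-cloaked cells, against 21.98, 18.5 and 19.5 CPM in medium-cloaked cells. Its log2 fold change was -1.48 ± 0.29, with an adjusted p of 0.82 in edgeR's test and 0.0042 in DESeq2. Non-cloaked cells had 21.1, 12.3 and 19.5 CPM. For TMEM65 and ARHGEF3 every strong-cloaked library lay below every library of both other groups.

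NOC2L, a nucleolar protein that also inhibits histone acetylation, averaged 140 CPM in strong-cloaked and 235 CPM in medium-cloaked cells (-0.75 ± 0.18). STIL, needed for centriole duplication, averaged 3.59 CPM in strong-cloaked and 11.3 CPM in medium-cloaked cells (-1.66 ± 0.47). KLHL24, an adaptor of a cullin 3 ubiquitin ligase, averaged 7.65 CPM in strong-cloaked and 17.5 CPM in medium-cloaked cells (-1.20 ± 0.32). In KLHL24 the non-cloaked mean was 7.47 CPM, so medium-cloaked cells were the high group there. TPRG1L (-1.32), MIEN1 (-1.17), SUSD5 (-0.70), TMEM183A (-0.58), KYAT3 (-0.57), RAB31 (-0.50) and DPM1 (-0.48) complete the lower set. Of these, KYAT3 is a kynurenine aminotransferase, RAB31 an endosomal GTPase and DPM1 a subunit of dolichol-phosphate-mannose synthase.

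**Figure D2:**
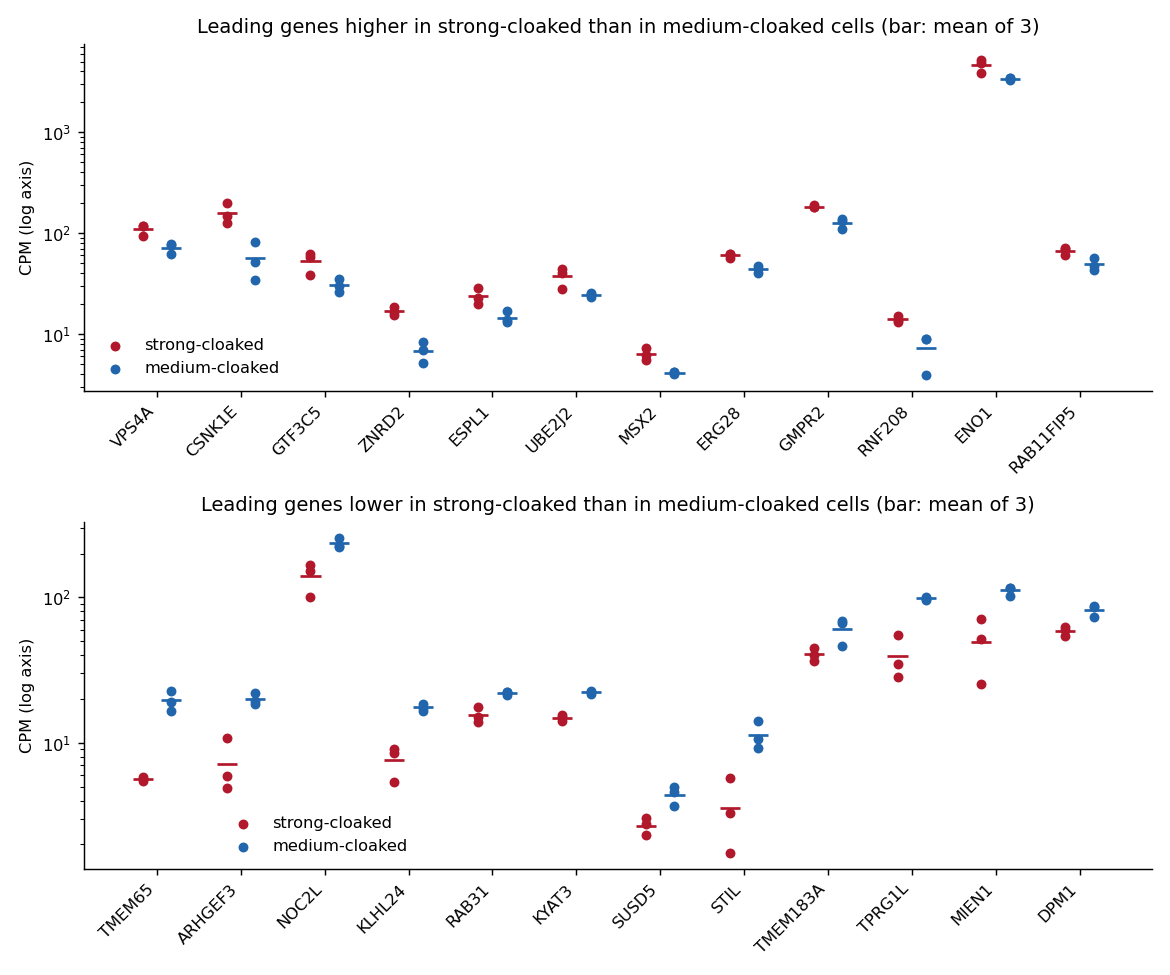
CPM (vertical log axis) in each of the 3 strong-cloaked (red, left) and 3 medium-cloaked (blue, right) libraries for the 12 higher (top) and 12 lower (bottom) genes of smallest p with no overlap, with a bar at each mean. TMEM65 lies at 5.43 to 5.83 CPM in strong-cloaked and at 16.7 to 22.9 CPM in medium-cloaked libraries, and CSNK1E has a wide spread in both groups.

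Set against the non-cloaked libraries, the 24 leading genes did not share a pattern. In 11 of them (6 higher and 5 lower) the medium-cloaked libraries alone were clear of the non-cloaked range, and in 9 (4 higher and 5 lower) the strong-cloaked libraries alone were. Both grades were clear of it in 1 gene, SUSD5, and neither in 3. Exons of 11 of the 24 overlap another gene, 8 of them on the opposite strand and 5 on the same strand, so these counts are uncertain. The comparisons of each grade with non-cloaked cells share those non-cloaked libraries. Strong-cloaked against non-cloaked cells gave 0 calls (0%) in edgeR's test and 16 among 27190 genes in DESeq2. At an unadjusted p below 0.05 edgeR had 663 genes (3.61%), 301 (1.64%) higher and 362 (1.97%) lower in strong-cloaked cells, and 1847 genes (10.0%) had no overlap, 889 (4.84%) higher and 958 (5.21%) lower. Medium-cloaked against non-cloaked cells gave 0 calls (0%) in edgeR's test and 67 among 27190 genes in DESeq2. At an unadjusted p below 0.05 edgeR had 1746 genes (9.50%), 756 (4.11%) higher and 990 (5.39%) lower in medium-cloaked cells, and 4079 genes (22.2%) had no overlap, 2006 (10.9%) higher and 2073 (11.3%) lower. Whether these counts differ was not tested.

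Beside VPS4A, CSNK1E, TMEM65 and ARHGEF3, DESeq2 called 9 genes of low or uneven counts, named after their values were seen. TBC1D10C, a Rab GTPase-activating protein, had 163, 112 and 147 counts in strong-cloaked and 76, 44 and 56 counts in medium-cloaked libraries, a DESeq2 log2 fold change of 1.33 (adjusted p 0.018). CALCRL-AS1, an antisense RNA, had 3, 3 and 2 counts in strong-cloaked and 49, 65 and 84 counts in medium-cloaked libraries (DESeq2 adjusted p 6.4e-05, edgeR 0.55). SH2D5 had 1, 3 and 0 counts in strong-cloaked and 52, 478 and 185 counts in medium-cloaked libraries (DESeq2 adjusted p 8.6e-06, edgeR 0.77). In non-cloaked libraries SH2D5 had 8, 125 and 8 counts, so it varied widely between replicates.

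The pseudogenes SRGAP2D (0, 0 and 0 counts in strong-cloaked, 133, 120 and 138 in medium-cloaked libraries) and PDPR2P (130, 96 and 70 in strong-cloaked, 0, 11 and 15 in medium-cloaked libraries) have close relatives in the genome, so their counts are uncertain. SRGAP2D was at least 123-fold lower in strong-cloaked cells, against a floor of 3 counts over the group, but it was also at 0 counts in 1 weak-cloaked and 1 untransfected library. ARL2-SNX15, a readthrough transcript, rested on 752 counts in medium-cloaked replicate 3, with 0 in the other 5 libraries of these grades, and TALAM1 on 11 counts in that library. GDF10 had 18, 8 and 18 counts in strong-cloaked libraries and none in medium-cloaked ones, and NKAIN3 none in strong-cloaked libraries and 10, 12 and 12 counts in medium-cloaked ones. Taken with the 4 leading genes, edgeR's adjusted p for these 13 was above 0.05 in every case.

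A pair of genes was called by edgeR only with a library left out. IDH2, the mitochondrial NADP-dependent isocitrate dehydrogenase, had 280, 422 and 470 CPM in strong-cloaked cells, against 39.0, 266 and 68.8 CPM in medium-cloaked cells. The other 9 libraries lay between 230 and 359 CPM, so the low values belong to medium-cloaked replicates 1 and 3. Without medium-cloaked replicate 2 its log2 fold change was 2.86 (adjusted p 0.0016 in edgeR's test), against 1.65 (adjusted p 0.96) with all libraries. C1orf74 had 100, 0 and 0 counts in strong-cloaked and 141, 97 and 64 counts in medium-cloaked libraries, and its adjusted p was 0.016 without strong-cloaked replicate 1 and 0.96 with it. Genes of 100 or more counts that differed 8-fold or more between replicates of a group numbered 188 in strong-cloaked and 192 in medium-cloaked cells.

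Gene lists are described by their median and counts, beside those of all tested genes given above: a median of 0.013, 2.77% higher and 1.56% lower at an unadjusted p below 0.05, and 10.0% higher and 8.93% lower without overlap. A positive log2 fold change was found in 9506 of the 18380 genes. Among the 11869 genes with a mean of at least 1 log2 CPM, 1480 were higher and 1302 lower without overlap. At an unadjusted p below 0.05 in edgeR's test, 347 of those 11869 were higher and 155 lower. No member of any of the 32 lists was called by edgeR's test, and 755 of their 796 members had enough counts to be tested.

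RNA sensors and their signalling chain gave no gene past the test. Of 24 such genes, 20 were tested, and 0 were higher and 0 lower at an unadjusted p below 0.05. The median log2 fold change was 0.11, and 0.062 to 0.19 with 1 library left out. TLR7, TLR8, TLR9 and CGAS had too few counts to be tested. MAVS, the adaptor of the cytosolic helicases, had 128, 138 and 134 CPM in strong-cloaked cells and 133, 135 and 134 CPM in medium-cloaked cells. Its interval, -0.22 to 0.20, is among the narrowest of the list.

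IFIH1, which encodes MDA5, was at 4.01, 4.19 and 3.94 CPM in strong-cloaked and 3.74, 4.28 and 5.56 CPM in medium-cloaked cells. The RIG-I gene RIGI (DDX58 in the matrix) was lower still, at 0.558 to 0.953 CPM in strong-cloaked and 0.793 to 1.06 CPM in medium-cloaked cells. IRF3, the transcription factor at the end of this chain, had 61.2, 53.3 and 54.2 CPM in strong-cloaked cells, against 48.9, 46.7 and 46.2 CPM in medium-cloaked cells. The groups did not overlap, but the interval of the log2 fold change, -0.03 to 0.53, included 0. Non-cloaked cells had 54.5, 59.5 and 76.7 CPM of IRF3.

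Antiviral effectors that act on RNA directly gave no gene past the test either. All 18 were tested, 0 passed an unadjusted p of 0.05 in either direction, and the median log2 fold change was -0.020. ADAR, which edits adenosine in double-stranded RNA, averaged 156 CPM in strong-cloaked and 156 CPM in medium-cloaked cells, with an interval of -0.20 to 0.20. EIF2AK2, the gene of the double-stranded RNA kinase PKR, had 23.1, 24.5 and 26.9 CPM in strong-cloaked cells, against 29.1, 28.5 and 27.2 CPM in medium-cloaked cells, with an interval of -0.56 to 0.18. OAS1 and OAS3 had log2 fold changes of 0.09 and -0.02. OAS2, at 0.36 CPM or less in every library of both groups, had an interval from -3.27 to 0.70 and is not informative at this level.

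**Figure D3:**
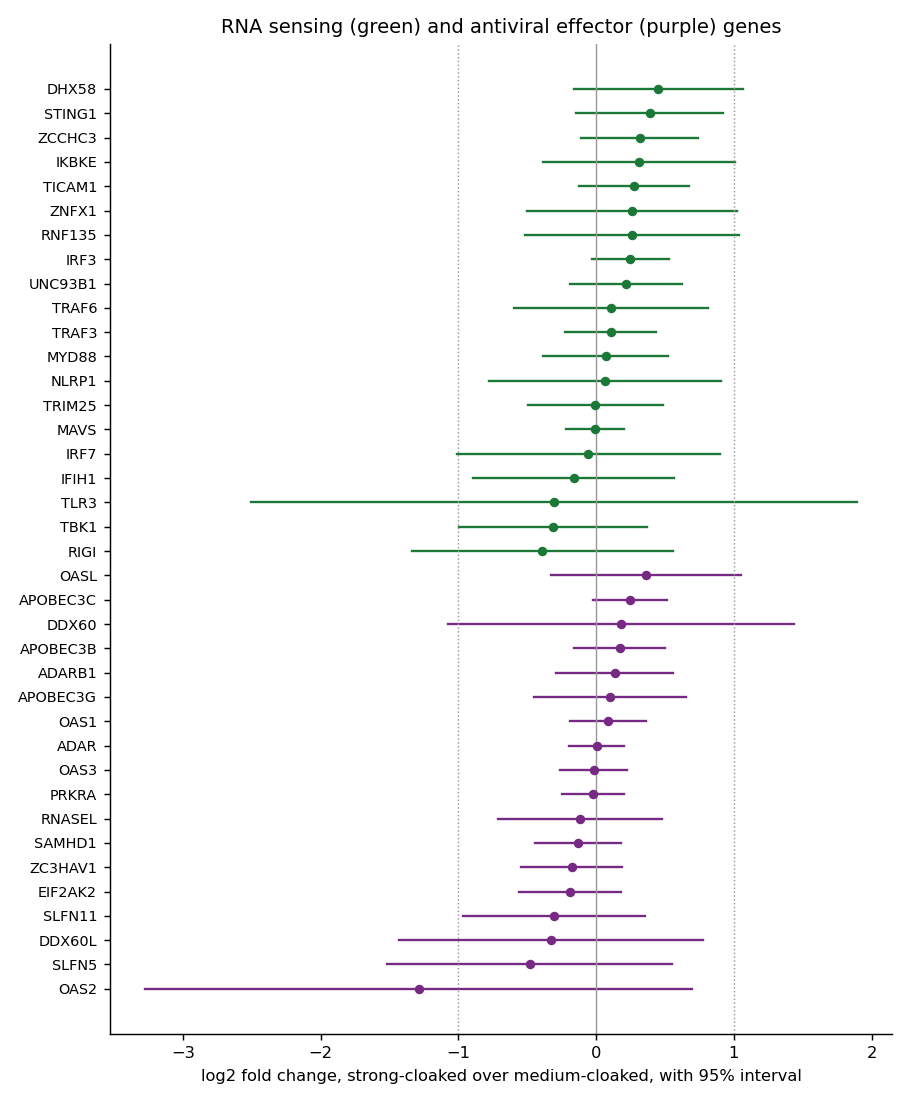
Log2 fold change, strong-cloaked over medium-cloaked (horizontal axis), with its 95% interval for 20 RNA sensing genes (green) and 18 antiviral effectors (purple); dotted lines mark 2-fold either way. Every interval includes 0, and those of 26 genes lie wholly within 2-fold, while low genes such as OAS2 and TLR3 have wide intervals.

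Interferon-stimulated genes, read as the output of sensing, had a median log2 fold change of 0.049 over 38 tested members, with 1 higher and 1 lower at an unadjusted p below 0.05. ISG15, a ubiquitin-like modifier, had 63.0, 62.2 and 62.4 CPM in strong-cloaked cells, against 45.3, 52.8 and 47.5 CPM in medium-cloaked cells (log2 fold change 0.37 ± 0.15, unadjusted p 0.034). Non-cloaked cells had 48.2, 56.2 and 67.1 CPM, a range that holds all 3 strong-cloaked and 1 of the 3 medium-cloaked libraries. HERC5, the ligase that attaches ISG15 to proteins, was placed the other way, at 2.16, 2.42 and 2.11 CPM in strong-cloaked and 3.51, 3.20 and 3.54 CPM in medium-cloaked cells (-0.62 ± 0.23, unadjusted p 0.017).

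MX1 and IFIT1, classical interferon-induced genes, were at no more than 2.26 and 1.90 CPM in any library of either grade. IFIT2 had at most 0.161 CPM, and RSAD2, IFI44 and XAF1 had too few counts to be tested. Without overlap, 6 members were higher and 3 lower.

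Of 27 NF-kB targets and cytokines 20 were tested, with a median log2 fold change of 0.13, 1 higher at an unadjusted p below 0.05 and none lower. The median was 0.019 with transcript length and GC content corrected, and 0.032 without medium-cloaked replicate 1. The higher gene was CXCL3, at 0.106, 0.173 and 0.062 CPM in strong-cloaked cells and 0 in all medium-cloaked libraries. Such a level is near the limit of detection. The neutrophil chemokine CXCL8 had 9.24, 11.6 and 9.99 CPM in strong-cloaked and 13.7, 15.6 and 12.9 CPM in medium-cloaked cells (-0.45 ± 0.27). NFKBIA, the inhibitor that NF-kB induces, averaged 125 CPM in strong-cloaked and 122 CPM in medium-cloaked cells. IL6, IL1A, IL1B, CCL5 and CXCL10 had too few counts to be tested. MHC class I presentation genes had a median of -0.045 over 16 members, with B2M between 856 and 892 CPM in strong-cloaked and between 916 and 921 CPM in medium-cloaked cells.

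Heat shock and chaperone genes were lower in strong-cloaked cells for more members than they were higher. Over 24 members the median log2 fold change was -0.17, with 0 higher and 3 lower at an unadjusted p below 0.05, and 0 higher and 7 lower without overlap. HSP90AA1, the inducible cytosolic HSP90, had 542, 574 and 838 CPM in strong-cloaked cells, against 870, 946 and 911 CPM in medium-cloaked cells (-0.48 ± 0.20). HSPD1, the mitochondrial chaperonin HSP60, had 1392, 644 and 760 CPM in strong-cloaked and 1200, 1530 and 1828 CPM in medium-cloaked cells (-0.70 ± 0.26), with overlap. The HSP40 co-chaperone gene DNAJA1 had 140, 154 and 169 CPM in strong-cloaked and 179, 191 and 191 CPM in medium-cloaked cells (-0.28 ± 0.12). Non-cloaked cells averaged 580 CPM of HSP90AA1 and 143 CPM of DNAJA1, nearer to the strong-cloaked level, and 1387 CPM of HSPD1, nearer to the medium-cloaked level.

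Strong-cloaked replicate 3 did not follow the other strong-cloaked libraries in this list. The mean log2 CPM of the 24 chaperone genes, relative to their mean over the 6 libraries, was -0.22, -0.23 and 0.18 in strong-cloaked replicates 1 to 3 and 0.013, 0.13 and 0.12 in medium-cloaked replicates 1 to 3. Strong-cloaked replicates 1 and 2 lay below all medium-cloaked libraries while replicate 3 lay above all of them in 5 of the 32 lists: immediate early genes, unfolded protein response, heat shock, p53 targets and cholesterol synthesis. RNA sensing genes were placed in the opposite way (0.095, 0.21 and -0.18 in strong-cloaked, -0.025, -0.090 and -0.0013 in medium-cloaked libraries). The 3 strong-cloaked libraries lay together above all medium-cloaked libraries in 6 of the 32 lists, and below them in 1, NRF2 targets. The 6 were ATF4 targets, metallothioneins, lipoprotein genes, ribosomal proteins, hepatocyte products and mitochondrial mRNAs. Over all tested genes, 19.0% had no overlap. Some gaps were small: the lowest strong-cloaked and highest medium-cloaked levels were 0.0260 and 0.0248 for ribosomal proteins, and 0.017 and 0.013 for ATF4 targets. Without strong-cloaked replicate 3 the median of the chaperone list was -0.31, and without strong-cloaked replicate 1 it was -0.078.

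Immediate early genes, the first to respond to growth factors and stress, show the same library apart. Their list median was -0.085 over 29 members, with none at an unadjusted p below 0.05, but the list level was -0.28, -0.21 and 0.26 in strong-cloaked and 0.036, 0.10 and 0.096 in medium-cloaked libraries. EGR1, an early growth response factor singled out after its values were seen, had 9.68, 8.18 and 43.5 CPM in strong-cloaked cells, against 18.9, 34.8 and 26.2 CPM in medium-cloaked cells. HSPA1B, an inducible HSP70 gene with a near-identical copy (HSPA1A), had 757, 860 and 2760 CPM in strong-cloaked and 1233, 1790 and 2058 CPM in medium-cloaked cells. For both genes a strong-cloaked library holds the highest value and strong-cloaked libraries the lowest, so the grades overlap. Without strong-cloaked replicate 3 the median of the immediate early list was -0.20, and that of the p53 targets -0.22, against -0.11 with it.

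**Figure D4:**
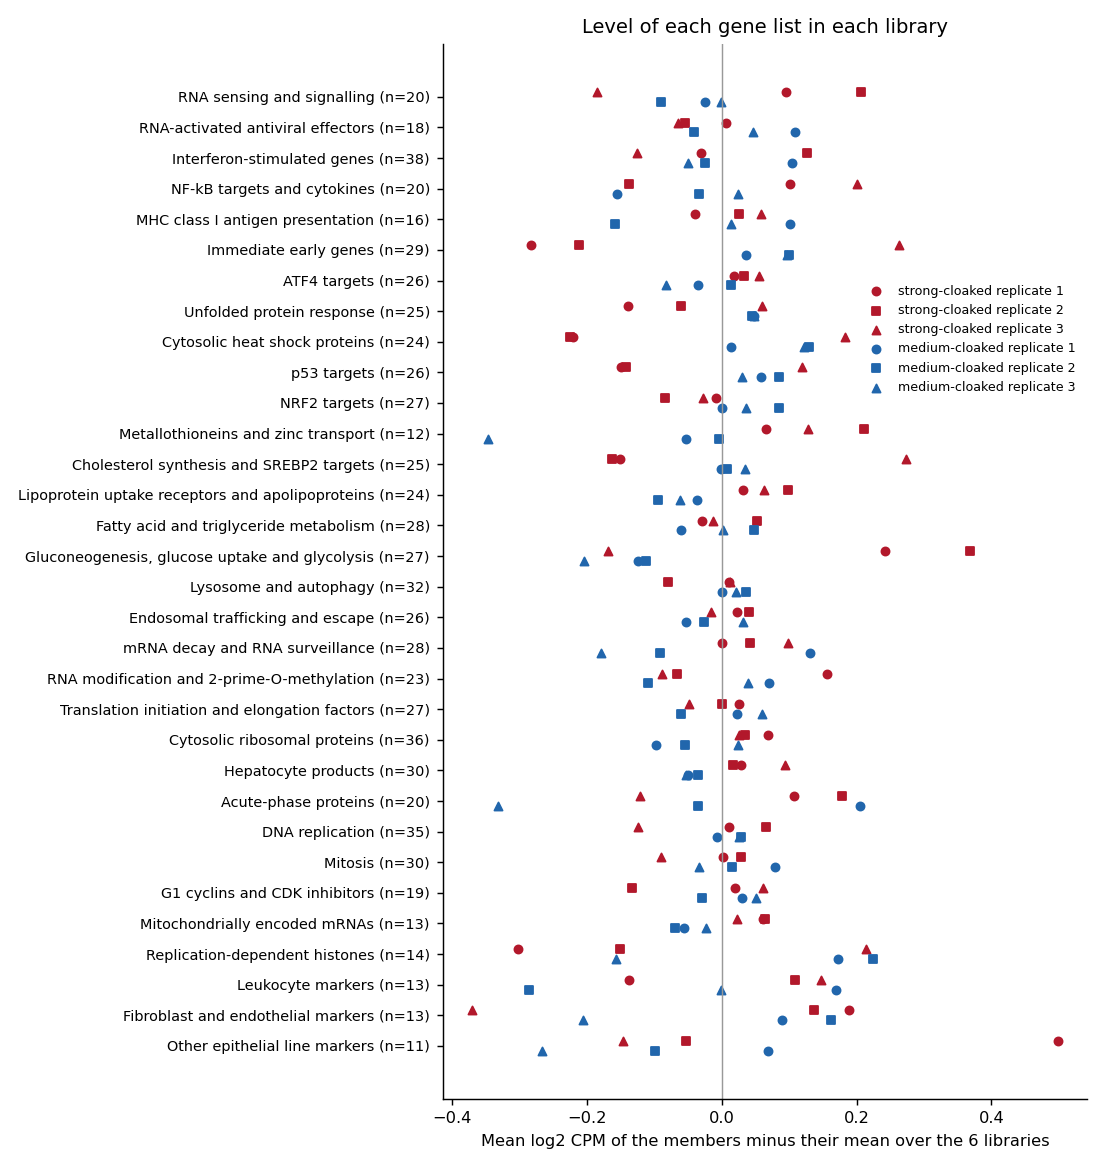
Mean log2 CPM of the members of each list, relative to their mean over the 6 libraries (horizontal axis), in each strong-cloaked (red) and medium-cloaked (blue) library; symbols mark the replicate. Strong-cloaked replicate 3 (red triangle) lies apart from strong-cloaked replicates 1 and 2 in the immediate early, heat shock, p53, cholesterol and glycolysis lists.

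Other stress programmes follow. ATF4 targets, the transcriptional arm of the integrated stress response, had a median of 0.098 over 26 members, with 1 higher and 1 lower at an unadjusted p below 0.05. That median was 0.0030 with the correction for length and GC content and 0.048 without medium-cloaked replicate 1. TRIB3, a pseudokinase that ATF4 induces, had 91.7, 80.8 and 65.6 CPM in strong-cloaked and 60.5, 52.9 and 46.0 CPM in medium-cloaked cells (0.58 ± 0.20), and ALDH1L2, of mitochondrial folate metabolism, 1.75, 1.27 and 1.63 CPM in strong-cloaked and 2.60, 2.24 and 2.13 CPM in medium-cloaked cells (-0.58 ± 0.22). ASNS, asparagine synthetase, had an interval of -0.27 to 0.20. The unfolded protein response list had a median of -0.041 over 25 members, 2 of them lower at an unadjusted p below 0.05: the endoplasmic reticulum chaperones DNAJB11 (-0.27 ± 0.11) and PDIA6 (-0.25 ± 0.12).

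NRF2 targets, the antioxidant programme, had a median of 0.053 over 27 members, with 2 lower and none higher at an unadjusted p below 0.05. Their list level lay the other way, below all medium-cloaked libraries in every strong-cloaked library (-0.0091, -0.084 and -0.027 in strong-cloaked, -0.00025, 0.084 and 0.036 in medium-cloaked libraries). TXN, thioredoxin, had 329, 332 and 359 CPM in strong-cloaked and 394, 417 and 401 CPM in medium-cloaked cells (-0.25 ± 0.09), and GSR, glutathione reductase, averaged 324 CPM in strong-cloaked and 516 CPM in medium-cloaked cells (-0.67 ± 0.30). The sign of the NRF2 median was not stable: it was -0.060 with the correction for transcript length and GC content, -0.076 without strong-cloaked replicate 3 and -0.032 without medium-cloaked replicate 3. Metallothioneins and zinc transporters had a median of 0.27 over 12 members, or 0.16 with length and GC content corrected, with none at an unadjusted p below 0.05. Of these, MT1G had 23.0, 26.7 and 26.8 CPM in strong-cloaked and 17.4, 21.2 and 20.7 CPM in medium-cloaked cells (0.37 ± 0.21). For p53 targets the count at an unadjusted p below 0.05 was 0 of 26 in either direction.

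Glucose metabolism had the highest median of the 32 lists. Over 27 genes of gluconeogenesis, glucose uptake and glycolysis it was 0.35, 24 of the 27 had a positive log2 fold change, and 3 were higher and 0 lower at an unadjusted p below 0.05. Besides ENO1 these were PKM, pyruvate kinase, with 2176, 2672 and 2285 CPM in strong-cloaked and 2072, 1596 and 894 CPM in medium-cloaked cells (0.64 ± 0.24), and SLC37A4, the glucose-6-phosphate carrier of the endoplasmic reticulum (0.43 ± 0.14). GAPDH, named as a common reference gene of this pathway, had 7935, 8956 and 7050 CPM in strong-cloaked and 6481, 6527 and 6696 CPM in medium-cloaked cells, with an interval of -0.04 to 0.61. Non-cloaked cells averaged 6864 CPM of GAPDH and 1452 CPM of PKM.

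Strong-cloaked replicates 1 and 2 stood highest in this list, and strong-cloaked replicate 3 lay among the medium-cloaked libraries. The list level was 0.24, 0.37 and -0.17 in strong-cloaked replicates 1 to 3, and -0.12, -0.11 and -0.20 in medium-cloaked replicates 1 to 3. Leaving out 1 library at a time moved the median between 0.24 (without strong-cloaked replicate 2) and 0.52 (without strong-cloaked replicate 3). Against non-cloaked cells the list median was 0.20 for strong-cloaked and -0.085 for medium-cloaked cells, and the same non-cloaked libraries stand in both values.

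Lipid genes were mixed. Cholesterol synthesis genes had a median of -0.00067 over 25 members, with 1 higher and 1 lower at an unadjusted p below 0.05. TM7SF2, a sterol reductase, had 9.51, 5.37 and 19.8 CPM in strong-cloaked and 5.07, 3.49 and 3.38 CPM in medium-cloaked cells (1.54 ± 0.48). MSMO1, the sterol C4-methyl oxidase, had 184, 214 and 333 CPM in strong-cloaked and 388, 402 and 406 CPM in medium-cloaked cells (-0.71 ± 0.30). Receptors and apolipoproteins of lipoprotein metabolism, of interest because lipid particles can enter hepatocytes through them, had a median of 0.16 over 24 members, with 8 higher and 0 lower without overlap. SCARB1, the HDL receptor, had 557, 559 and 534 CPM in strong-cloaked and 456, 427 and 351 CPM in medium-cloaked cells (0.42 ± 0.18). Fatty acid and triglyceride genes had a median of 0.033 over 28 members.

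Genes of endosomal trafficking and escape, the route by which particles deliver RNA, had a median of 0.0036 over 26 members. Besides VPS4A, HGS of the ESCRT-0 complex was at an unadjusted p below 0.05, with 95.6, 84.6 and 81.2 CPM in strong-cloaked and 74.7, 72.8 and 75.0 CPM in medium-cloaked cells (0.23 ± 0.11). SNX2, a sorting nexin of the retromer system, had 46.9, 43.9 and 49.4 CPM in strong-cloaked and 59.3, 60.4 and 55.8 CPM in medium-cloaked cells (-0.32 ± 0.16). Lysosome and autophagy genes had a median of 0.048, and 28 of their 32 intervals lay within 2-fold.

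Genes that handle mRNA inside the cell gave no gene past the test. None of 28 mRNA decay and surveillance genes and none of 23 RNA modification genes was at an unadjusted p below 0.05, with medians of -0.082 and 0.040. The closest to it was MRM1, a mitochondrial ribose methyltransferase, with 7.96, 5.58 and 4.65 CPM in strong-cloaked and 4.23, 3.88 and 3.45 CPM in medium-cloaked cells (unadjusted p 0.054). Of 27 translation factors none was at an unadjusted p below 0.05 and 25 had intervals within 2-fold. PABPC1, the poly(A)-binding protein, averaged 1070 CPM in strong-cloaked and 1247 CPM in medium-cloaked cells (-0.22 ± 0.10), and EIF2S2, the beta subunit of eIF2, 188 CPM in strong-cloaked and 253 CPM in medium-cloaked cells (-0.43 ± 0.20).

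Ribosomal protein genes were mostly higher in strong-cloaked libraries, by small amounts. Of 36, 21 were higher and 2 lower without overlap between the grades, 28 had a positive log2 fold change, and the median was 0.14. At an unadjusted p below 0.05 there was 1 higher, RPS9, with 1460, 1447 and 1404 CPM in strong-cloaked and 1075, 1193 and 1197 CPM in medium-cloaked cells (0.31 ± 0.14). RPS6 was placed the other way, at 2068 to 2432 CPM in strong-cloaked and 2499 to 2664 CPM in medium-cloaked cells (-0.21 ± 0.11). The intervals of 30 members lay within 1.5-fold. With a correction for transcript length and GC content the list median was 0.051.

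Hepatocyte genes had a median of 0.15 over 30 tested members, with 2 higher and 0 lower at an unadjusted p below 0.05. Among them, coagulation factor X (F10), had 123, 106 and 94.0 CPM in strong-cloaked and 85.4, 89.0 and 85.6 CPM in medium-cloaked cells (0.31 ± 0.13). ALB itself had a log2 fold change of -0.23 with an interval of -0.52 to 0.06. With the correction for length and GC content the hepatocyte median was 0.041, and without strong-cloaked replicate 3 it was 0.091. Acute-phase genes had a median of 0.052 over 20 members, with SOCS3, the feedback inhibitor of cytokine signalling, higher at an unadjusted p of 0.035 (17.7, 14.7 and 7.65 CPM in strong-cloaked, 9.64, 6.74 and 6.61 CPM in medium-cloaked cells).

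Proliferation genes had list medians near 0. DNA replication genes had a median of 0.034 over 35 members, 31 of them with intervals within 2-fold, and RRM1, of ribonucleotide reductase, was the 1 lower gene at an unadjusted p below 0.05 (75.9, 84.4 and 79.7 CPM in strong-cloaked, 104, 107 and 97.1 CPM in medium-cloaked cells). Mitosis genes had a median of -0.042 over 30, with AURKA, the Aurora A kinase, at 104, 99.5 and 110 CPM in strong-cloaked and 73.6, 76.4 and 43.4 CPM in medium-cloaked cells (0.70 ± 0.25). G1 cyclins and inhibitors had a median of -0.032 over 19, with none at an unadjusted p below 0.05.

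Base composition moved with the comparison across the whole transcriptome. Over 4 bins of GC content, low to high (4577 genes each), the median log2 fold change was -0.16, -0.053, 0.082 and 0.17, and the share of genes at an unadjusted p below 0.05 was 3.08%, 3.21%, 3.93% and 7.14%. Over 4 bins of transcript length, short to long, the median was 0.092, 0.051, -0.0070 and -0.064. The leading higher genes had a median GC content of 57.5% and the leading lower genes one of 43.7%, against 49.4% over all tested genes. With length and GC content corrected in each library, edgeR's test again gave 0 calls, with 679 genes at an unadjusted p below 0.05 and a smallest adjusted p of 0.17. The medians of the glycolysis, heat shock and lipoprotein lists were then 0.29, -0.13 and 0.078. The part of base composition in any single gene was not tested.

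**Figure D5:**
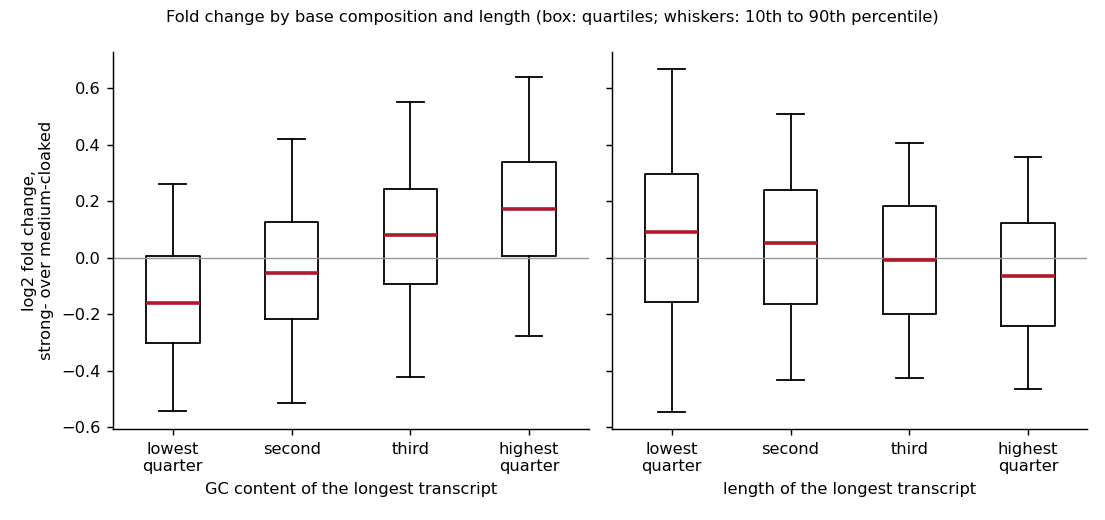
Log2 fold change, strong-cloaked over medium-cloaked (vertical axis), by bin of GC content (left) and length (right) of the longest transcript; the red line is the median, the box the quartiles and the whiskers the 10th and 90th percentiles. The median climbs over the GC bins, ending at 0.17, and declines over the length bins, ending at -0.064.

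Markers of other cell types and of RNA quality are given beside these lists. The 16 leukocyte markers summed to 1074 to 1195 CPM in strong-cloaked and 1279 to 1328 CPM in medium-cloaked libraries, nearly all of it LYZ, at 1046 CPM in strong-cloaked and 1211 CPM in medium-cloaked cells. The defining markers PTPRC, MS4A1 and FCGR3A were at 0 counts in all 6 libraries. The 16 fibroblast and endothelial markers summed to 46.3 to 91.2 CPM in strong-cloaked and 45.1 to 52.2 CPM in medium-cloaked libraries. Of them, 8 were under 1 CPM in all 6 libraries, with THY1 at 0, while TIE1 had 9.01 to 13.3 CPM. ACTA2 had 48.2, 5.04 and 1.64 CPM in strong-cloaked and 6.88, 7.83 and 1.28 CPM in medium-cloaked libraries. The 17 markers of other epithelial lines summed to 584 to 733 CPM in strong-cloaked and 704 to 732 CPM in medium-cloaked libraries. Of these, 9 were under 1 CPM in all 6 libraries, with TP63 and SFTPB at 0. All 13 mitochondrial mRNAs had a positive log2 fold change, with a median of 0.089 and none at an unadjusted p below 0.05. Histone mRNAs, which mostly lack poly(A) tails, had a median of -0.13 over 14 and summed to 47.6 to 67.5 CPM in strong-cloaked and 50.7 to 58.2 CPM in medium-cloaked libraries. Their part in the results was not tested.

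SPAG1 on chromosome 8, a chaperone-binding protein gene of the dynein assembly pathway, was named whatever its values. It averaged 0.252 CPM in strong-cloaked and 0.248 CPM in medium-cloaked cells (log2 fold change 0.01 ± 0.44), against 0.267 CPM in non-cloaked, 11.5 CPM in weak-cloaked and 16.1 CPM in untransfected cells.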

How the data were processed

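The authors deposited raw counts, 1 row per gene symbol (41412 rows, 14176 of them 0 in every library), made from poly(A)-selected, strand-specific libraries read as 150 bp pairs with a minimum RIN of 7, per the labels' protocols. HISAT2, HTSeq, DESeq2 1.46.0, R 4.4.2 and GRCh38 are listed per the submitters' processing notes. The annotation release, strand setting and any filter are not stated in those sources, so overlapping genes are uncertain. Each column name matched the library name of 1 sample.

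Counts were fitted in R 4.3.3 with edgeR 4.0.16 (filterByExpr, TMM, robust quasi-likelihood F test, 1 mean per group over all 15 libraries, 10 residual degrees of freedom), adjusted by Benjamini-Hochberg over 18380 genes, at a threshold of 0.05. The SE comes from the fold change and its F statistic, and 2 genes have no interval. Replicate pairs differed far beyond sampling noise (chi-square per degree of freedom 87.4 to 133), so all counted separately. Positions, length and GC content came from GENCODE 29, which covered 99.6% of tested genes.

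Alternatives were DESeq2 1.42.0, other scalings and filters, the compared groups alone, non-robust estimation, a replicate block, offsets for length and GC content, and leaving out libraries. The procedure was tested on simulated data. The genes compared and the lists were chosen with earlier results of these data known. Genes were named by rule: called genes, otherwise the 24 of smallest p without overlap, up to 3 members of smallest p per list, and SPAG1; some of these are given only within counts, and a few are not reported here. EGR1, HSPA1B, IDH2, C1orf74 and DESeq2's calls were picked with their values in view, and other list members were named for their role.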

Additional observations from a re-analysis of the deposited data

How the results depend on the processing

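In strong- against medium-cloaked cells, 14 of 17 alternatives left edgeR's count of calls at 0. DESeq2 gave 13 calls among 27190 genes, and leaving out 1 library gave 0 to 1. The single calls arose without strong-cloaked replicate 1 (C1orf74) and without medium-cloaked replicate 2 (IDH2). For strong-cloaked against non-cloaked cells DESeq2 gave 16 calls among 27190 genes, and leaving out 1 library 0 to 1. The compared groups alone gave 2 calls among 17064 genes (SVIL and MVB12A, higher). For medium-cloaked against non-cloaked cells DESeq2 gave 67 calls among 27190 genes and leaving out 1 library 0 to 2. The cause of these gaps was not tested. At an unadjusted p below 0.05, 584 of 18849 to 1150 of 18880 genes passed with a library left out, against 796 of 18380. With the compared groups alone it was 1807 of 17104. Same-numbered strong- and medium-cloaked libraries showed no shared deviation (r = 0.017, -0.054 and -0.029 over 12030 genes). Such values cannot tell whether same-numbered libraries shared a culture or day, which is not stated in the sources used here. With the replicate number as a block there were 0 calls in each of the 3 comparisons (801 genes at an unadjusted p below 0.05 in strong- against medium-cloaked cells), and 0 with the block and the length and GC offsets together. Of the named genes, VPS4A, CSNK1E, TMEM65 and ARHGEF3 passed only in DESeq2. Signs turned for ITIH4 (-0.52, and with a library left out -0.84 to 0.17, the positive value without medium-cloaked replicate 2), ACTA2 (1.78, and -0.67 without strong-cloaked replicate 1 to 2.32 without strong-cloaked replicate 3) and SPAG1 (0.013, but -0.026 by total counts, -0.0010 with the compared groups alone, and -0.39 to 0.30 with a library left out). Scaling by total counts moved the median of all genes to -0.026. Of the list medians under alternatives, 500 moved by less than the spread between replicates and 44 by more, most often without strong-cloaked replicate 3 (9 lists) and with the length and GC offsets (7 lists). The NF-kB median was 0.058 with the block, against 0.13. The immediate early median was -0.0077 and that of p53 targets -0.059 without strong-cloaked replicate 1. Medians near 0 changed sign under some settings, as for MHC class I genes (-0.045, and 0.052 without strong-cloaked replicate 1). Genes of few counts, such as OAS2 and CXCL3, are limited by depth.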
